A study of Populus tremula x Populus alba with 2 samples.

Results

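Of the glycosyltransferases of xylan synthesis, 7 genes were examined in debarked stems of hybrid aspen (Populus tremula x Populus alba), out of 41335 poplar genes in the deposited table. The 7 genes were taken by identifier, as the homologues of 4 Arabidopsis genes; no threshold on their values was used, but earlier results of these data were known when they were chosen. They comprise the IRX9 homologues GT43A (Potri.006G131000) and GT43B (Potri.016G086400), a pair of IRX14 homologues (Potri.007G047500 and Potri.005G141500), a pair of IRX10 homologues (Potri.001G068100 and Potri.003G162000), and the FRA8 homologue GT47C (Potri.009G006500). The table pairs identifiers with no names, so these assignments could not be checked against it.

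Glucuronoxylan is the main hemicellulose of hardwood, a chain of beta-1,4-linked xylose units that is made in the Golgi and laid down in the secondary wall between the cellulose fibres and lignin. In Arabidopsis, IRX9, IRX14 and IRX10 act in lengthening this chain and are thought to work as a complex. IRX10, a member of family GT47, carries the xylosyltransferase activity, while IRX9 and IRX14, members of family GT43, support chain elongation. FRA8, another GT47 protein, is needed in Arabidopsis for a short oligosaccharide at the reducing end of the chain rather than for its length. Arabidopsis mutants that lack these functions have less xylan and weaker xylem walls.

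The transcript levels came from 2 RNA-seq libraries. One was made from 2 to 3 pooled plants of MOMT4-0, a transgenic line that carries an engineered monolignol 4-O-methyltransferase, MOMT4, under the bean PAL2 promoter, which is active in differentiating xylem. The other was made from 2 to 3 pooled control plants, labelled WT. All plants were coppiced, about 2 months old and grown in a greenhouse, and about 100 mg of stem from internodes 1 to 15 was used for each pool. The comparison of the libraries addresses whether transcripts of cell wall genes differed in stems that express MOMT4. Each group has 1 library and hence no replicate, and no SD, SE or p-value can be given for any difference. MOMT4-0 is a single transgenic line, so line and transgene cannot be told apart, and in a stem containing several cell types, fewer xylem cells and less transcript per cell cannot be told apart either.

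Levels are given as RPKM, that is, reads scaled for exon length and for the mapped reads of the library, which can be compared between genes because it is expressed per length. Values in the table correspond to about 9467950 reads for MOMT4 and 8757860 for WT. These totals were estimated from rows whose values differ by the factor that equal read numbers would give. The rows used were taken to hold a single read in each library and no introns. Limits on reads given below rest on this assumption, which was not tested. The row taken as the transgene stood at 1221.8 RPKM in the column headed MOMT4 and at 4.79 RPKM in the column headed WT. The sample descriptions give the table's codes for the 2 libraries in the opposite order to these headings. The headings were followed, because they place the high value of the row taken as the transgene in MOMT4. The paper likewise reports abundant MOMT4 transcripts in the transgenic line. Every direction below depends on the headings.

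The 7 genes covered a wide range of levels, and their order was nearly the same in both libraries. Potri.001G068100 (IRX10 homologue) was the most abundant, at 194.3 RPKM in MOMT4 and 197.0 RPKM in WT. By its mean over both libraries it ranked 476 among the 22944 poplar genes whose mean reached 1 RPKM or more (the filter used below), within the top 2.07%. The IRX14 homologue Potri.007G047500 came next, at 95.7 RPKM in MOMT4 and 96.6 RPKM in WT. GT43B was the third, at 68.2 RPKM in MOMT4 and 64.6 RPKM in WT.

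A trio of genes with nearly equal levels followed, from different families. GT47C was at 36.6 RPKM in MOMT4 and 36.5 RPKM in WT, and the IRX14 homologue Potri.005G141500 at 35.6 RPKM in MOMT4 and 36.0 RPKM in WT. GT43A stood just above both in MOMT4, at 38.2 RPKM, and below both in WT, at 30.0 RPKM, which was the only change in the order. In MOMT4 the step from GT43A to GT47C was 1.04-fold and that from GT47C to Potri.005G141500 was 1.03-fold, and in WT the step from GT47C to Potri.005G141500 was 1.01-fold. Without replicates the order within this trio cannot be resolved. The last gene, the IRX10 homologue Potri.003G162000, was far below the rest, at 0.9005 RPKM in MOMT4 and 0.973 RPKM in WT, and it was the 1 gene of the 7 that stayed under the mean of 1 RPKM.

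**Figure D1:**
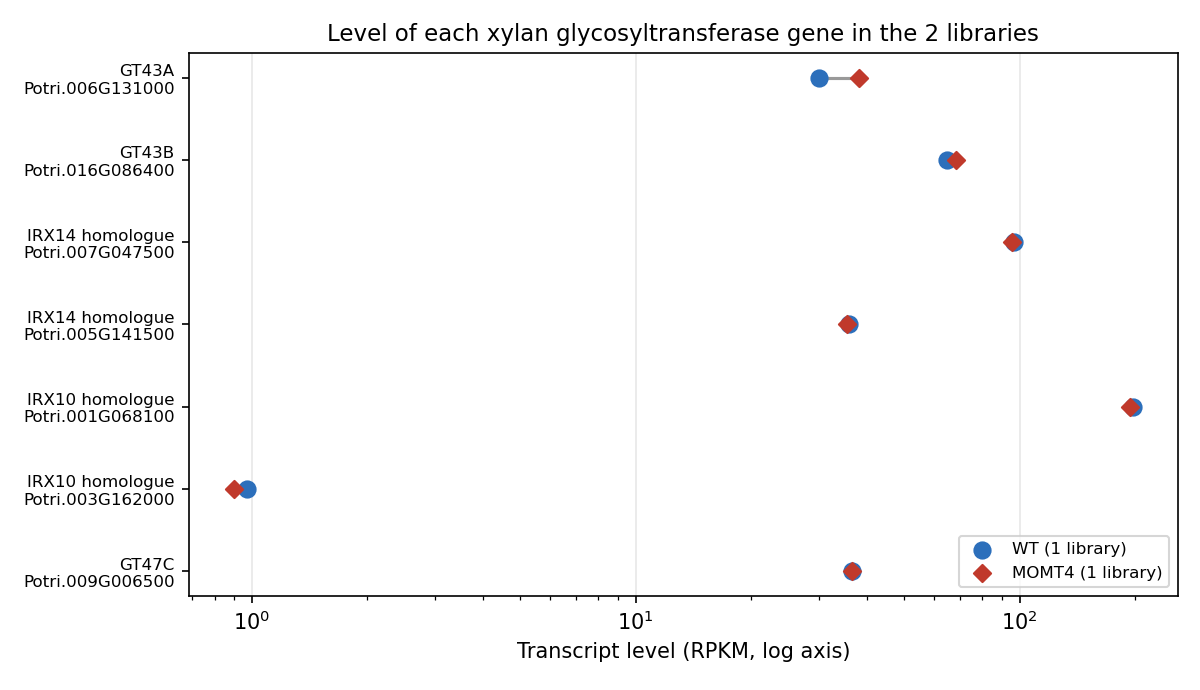
Transcript level in RPKM (log axis) of each of the 7 genes, with 1 point for the WT library (circle) and 1 for the MOMT4 library (diamond). The points of each gene lie on or next to each other except for GT43A, at 30.0 RPKM in WT and 38.2 RPKM in MOMT4, and Potri.003G162000 lies near 1 RPKM in both.

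The difference between the libraries was expressed as the log2 ratio of MOMT4 over WT after adding 1 RPKM to each value, a scale that understates changes of low genes. By this rule of size, which is not a test, 0 of the 7 genes were at least 1.5-fold apart, where 7.07% of the 22944 genes past the filter were, and 0 were at least 2-fold apart, where 1.77% were. The log2 ratio was below 0 for 4 of the 7 genes, and for 3 of the 6 that passed the filter, beside 50.9% of all genes. The median log2 ratio was -0.013 over the 7 genes and -0.0057 over all genes past the filter. Counts of 0 among 7 genes are close to such background shares and are no result about the group.

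**Figure D2:**
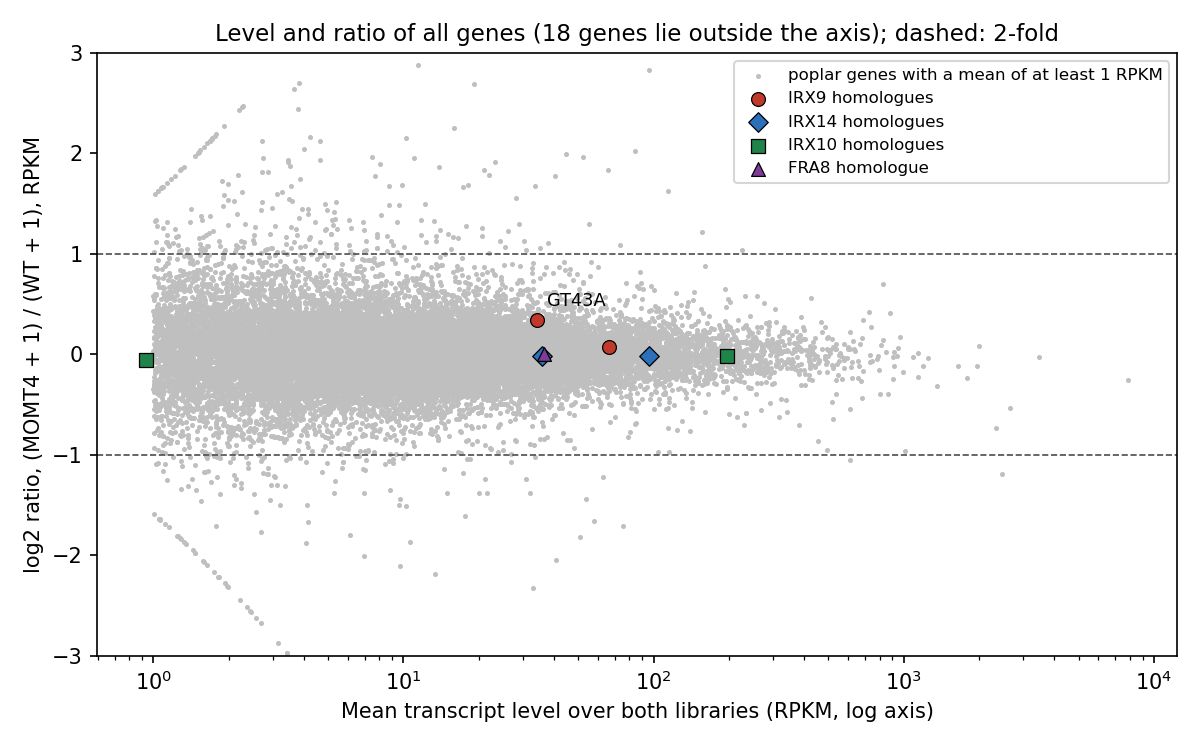
Mean level over both libraries (RPKM, log axis) and log2 ratio of MOMT4 over WT (pseudocount of 1 RPKM) for the 22944 poplar genes past the filter (grey) and for the 7 xylan glycosyltransferase genes, coloured by family. The 7 genes lie between -0.054 and 0.34, inside the dashed lines at 2-fold, and GT43A is the highest of them. 18 genes beyond a log2 ratio of 3 in either direction are not drawn.

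To set each ratio beside the variation between these libraries, it was placed among the other genes past the filter whose mean RPKM was no more than 25% above or 20% below its own. All 6 genes past the filter lay within the central 95% of genes of like level, and 5 of them lay within the middle 50%. GT43A was the exception.

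The IRX9 homologues were the only family in which both genes were higher in MOMT4. GT43A, at 38.2 RPKM in MOMT4 and 30.0 RPKM in WT, had a log2 ratio of 0.34, or 27.2% more in MOMT4 without the pseudocount. Among 2095 genes of like level, 93.8% had a lower log2 ratio and 6.16% a higher one. The central 95% of them ran from -0.48 to 0.50. Disregarding sign, 87.3% of these genes had a smaller log2 ratio than GT43A and 12.7% a larger one. Its difference was thus in the upper part of what genes of this level showed, but not beyond it. GT43B, at 68.2 RPKM in MOMT4 and 64.6 RPKM in WT, had a log2 ratio of 0.077, and 67.1% of 1091 genes of like level had a lower one.

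The IRX14 homologues were level between the libraries. The log2 ratio was -0.013 for Potri.007G047500, and only 5.66% of 724 genes of like level had a ratio closer to 0. For Potri.005G141500 it was -0.015, with 6.67% of 1993 genes of like level closer to 0. Both genes thus differed less between the libraries than most genes of their level did.

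Of the IRX10 homologues, Potri.001G068100 had a log2 ratio of -0.019, and 11.2% of 330 genes of like level were closer to 0. Genes this abundant varied least here, with a central 95% from -0.37 to 0.40. Potri.003G162000 had a log2 ratio of -0.054. Its values differ by a factor of 1.08, which is the factor by which WT values exceed MOMT4 values in 997 rows of the table, and it is the factor that the same number of reads in both libraries would give. The exon length is not in the table, but the gene spans 3846 bases, so its values can stand for no more than 32 reads in each library. Even with 32 reads each, the exact (Clopper-Pearson) 95% interval of the ratio of MOMT4 over WT is 0.549 to 1.56, for counting error only. A change inside this interval cannot be told from counting error for Potri.003G162000. With fewer reads the interval would be wider, and it holds no variation between plants or pools. It is therefore not a limit above which a change would have been detected.

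GT47C, the FRA8 homologue, was also level between the libraries. At 36.6 RPKM in MOMT4 and 36.5 RPKM in WT its log2 ratio was 0.0026, and 1.24% of 1934 genes of like level were closer to 0.

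**Figure D3:**
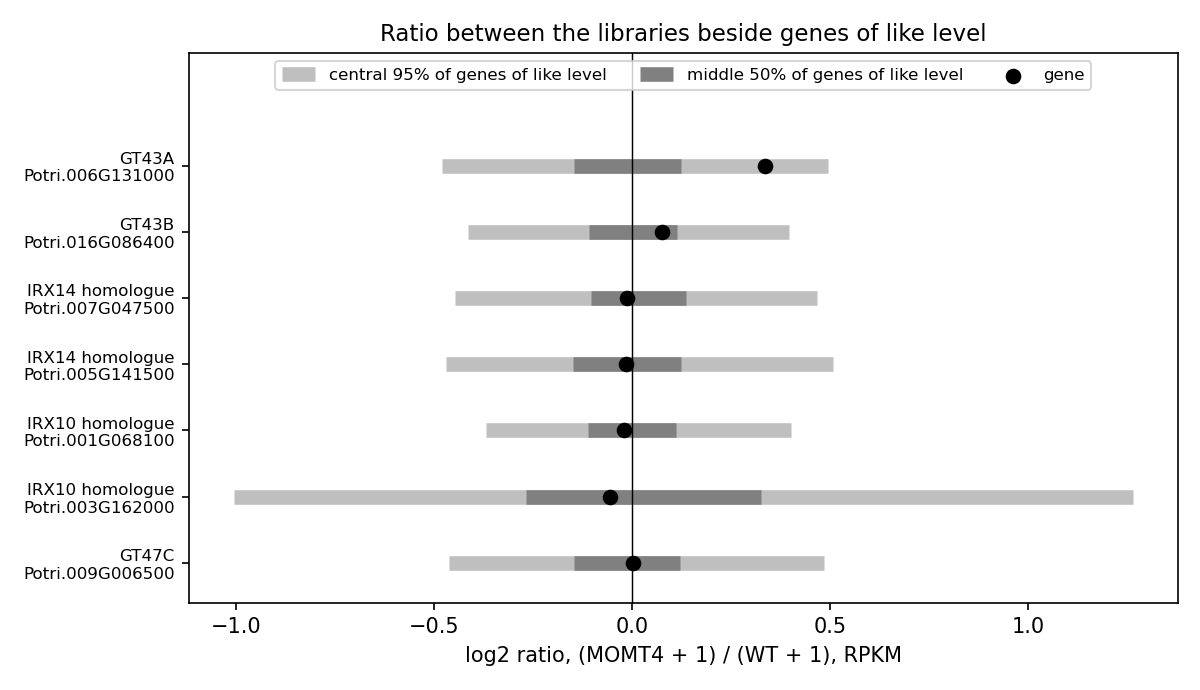
Log2 ratio of MOMT4 over WT (pseudocount of 1 RPKM) of each of the 7 genes (points), beside the central 95% (light bar) and the middle 50% (dark bar) of the genes past the filter with a like mean RPKM. Potri.003G162000 is itself under the filter, so the genes behind its bars all have a higher mean than its own. GT43A, at 0.34, is the only gene outside the dark bar and lies inside the light one, and the bars are widest for the low gene Potri.003G162000.

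Counting error could not be computed for the other genes, since their exon lengths, and so their reads, are not given. A limit follows from the span, which the exons cannot exceed. The values of GT43A can stand for no more than 1371 reads in MOMT4 and 997 in WT, and with that many the 95% counting interval of its 1.27-fold ratio would be 1.17 to 1.38. The true interval is wider by an unknown amount. For GT43B the same limit gives 0.979 to 1.14 around a ratio of 1.06, which includes no difference. Neither interval holds any variation between plants or pools.

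Of the 4 families, 3 are represented by a pair of genes, and the share of each gene in the summed RPKM of its pair does not depend on how the libraries were scaled. The pairs differed in how evenly their genes were expressed. GT43A made up 35.9% of the IRX9 pair in MOMT4 and 31.7% in WT, a difference of 4.16 percentage points. GT43B was thus the major copy in both libraries, 1.79-fold above GT43A in MOMT4 and 2.15-fold above it in WT. In the IRX14 pair, Potri.007G047500 made up 72.9% in MOMT4 and 72.8% in WT, so that it exceeded Potri.005G141500 by 2.69-fold and 2.68-fold. These shares differed by 0.030 percentage points between the libraries.

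The IRX10 pair was expressed almost entirely from 1 copy. Potri.001G068100 made up 99.5% of the pair in both libraries and exceeded Potri.003G162000 by 216-fold in MOMT4 and 202-fold in WT. The genes of a pair are duplicates, and the reads of hybrid aspen were aligned to the genome of another species, P. trichocarpa, with 1 mismatch allowed. Reads that match both copies may have been split between them, and reads of a copy that differs more from P. trichocarpa may have been lost. The part of this in the shares was not tested, as no sequences were used here.

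**Figure D4:**
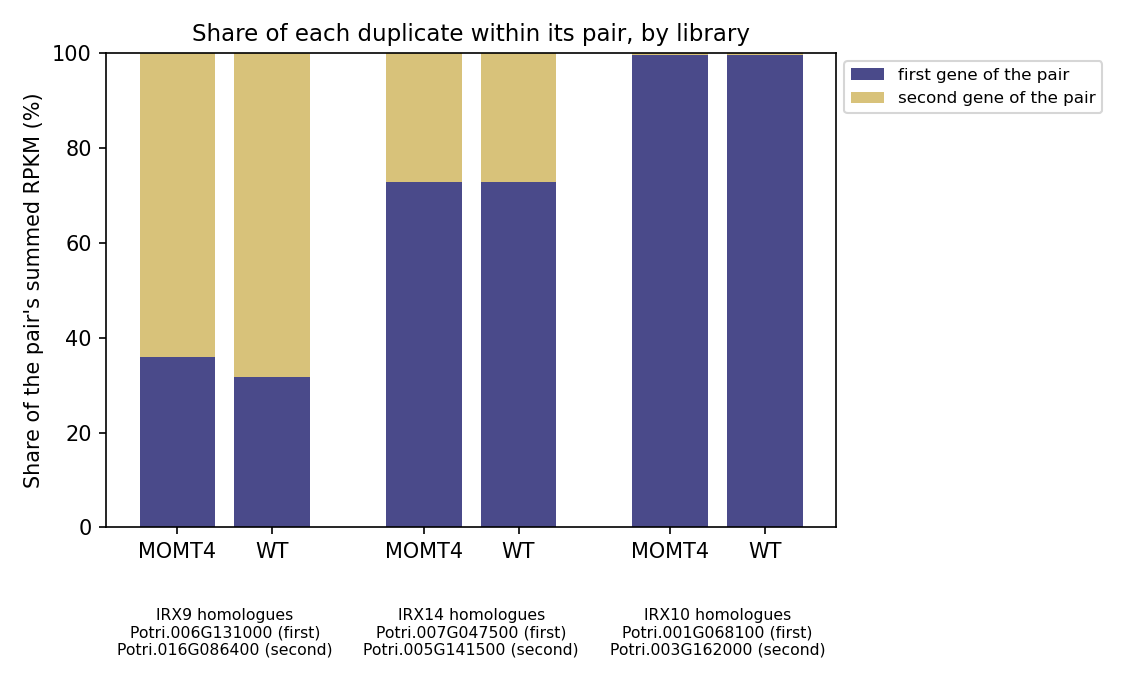
Share in percent of each gene in the summed RPKM of its pair, for the IRX9, IRX14 and IRX10 homologues, with 1 bar per library. The IRX14 and IRX10 bars look alike in MOMT4 and WT, whereas the share of GT43A is 35.9% in MOMT4 and 31.7% in WT.

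Summed over the 7 genes, the level was 469.6 RPKM in MOMT4 and 461.7 RPKM in WT, 1.71% more in MOMT4, and 0.0710% and 0.0690% of all RPKM in the table. The IRX10 pair was the largest part of this sum, at 41.6% in MOMT4 and 42.9% in WT, followed by the IRX14 pair at 28.0% and 28.7%, the IRX9 pair at 22.7% and 20.5%, and GT47C at 7.80% and 7.91%. Families GT43 and GT47 contributed almost equally, with GT43 at 50.6% of the sum in MOMT4 and 49.2% in WT. The IRX9 pair was the family whose sum differed most, with 106.4 RPKM in MOMT4 and 94.6 RPKM in WT, 12.4% more in MOMT4. The sums of the IRX14 pair, 131.3 and 132.6 RPKM, and of the IRX10 pair, 195.2 and 197.9 RPKM, were slightly lower in MOMT4.

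In terms of the proportions between the 3 families that act in chain elongation in Arabidopsis, the IRX10 pair stood 1.49-fold above the IRX14 pair in both libraries. It stood 1.84-fold above the IRX9 pair in MOMT4 and 2.09-fold above it in WT. The proportion that involves neither IRX9 homologue was therefore the one that matched. The differences in the other proportion and in the sum of the IRX9 pair mainly restate the values of GT43A and GT43B. They are not separate results, and both genes lay within the central 95% of genes of like level.

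The 7 genes lie on 7 different chromosomes, and none shares its position with another row of the table. The positions are those of the deposited table, whose genome build is not given in the sources used here, with 1 added to the start, and the table does not mark exons, introns or UTRs. GT43A runs from 10735255 to 10739049 on chromosome 6 and GT43B from 6823647 to 6825952 on chromosome 16, the shortest span, of 2306 bases. The IRX14 homologues run from 4390301 to 4397682 on chromosome 7 (Potri.007G047500, the longest span, of 7382 bases) and from 11980855 to 11985261 on chromosome 5 (Potri.005G141500). The IRX10 homologues run from 5428490 to 5432738 on chromosome 1 (Potri.001G068100) and from 17296689 to 17300534 on chromosome 3 (Potri.003G162000). GT47C runs from 1204125 to 1206845 on chromosome 9.

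Of the 14 rows next to the 7 genes, 11 passed the filter, with log2 ratios from -0.40 to 0.53, and 6 of them were lower in MOMT4. The nearest row to any of the 7 genes was Potri.005G141600, which begins 247 bases after the IRX14 homologue Potri.005G141500 ends and stood at 41.7 RPKM in MOMT4 and 39.4 RPKM in WT, a log2 ratio of 0.079. The most abundant of these rows lies beside GT43A: Potri.006G130900 ends 658 bases before GT43A begins and stood at 1148 RPKM in MOMT4 and 1139 RPKM in WT, a log2 ratio of 0.012. Whether reads from these neighbours contribute to the levels of Potri.005G141500 and GT43A was not tested. The low IRX10 homologue Potri.003G162000 also lies near an abundant gene, Potri.003G161900, which ends 4084 bases before it and stood at 690.8 RPKM in MOMT4 and 910.0 RPKM in WT.

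With 2 libraries, likeness of pattern can only mean closeness in the 2 levels. By the distance in log2(RPKM + 1) over both libraries, the gene nearest to GT43A was Potri.004G131600, at 37.9 RPKM in MOMT4 and 30.4 RPKM in WT, and the gene nearest to the abundant IRX10 homologue was Potri.001G224100, at 195.5 and 197.8 RPKM. The nearest to GT43B was Potri.010G209900 and the nearest to GT47C was Potri.019G053200. For the IRX14 homologues these were Potri.008G048800 (for Potri.007G047500) and Potri.007G080400 (for Potri.005G141500), and for Potri.003G162000 it was Potri.001G382400. The distances ran from 0.0054 to 0.070 on the log2 scale. Such closeness carries no information about shared function.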

How the data were processed

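Both libraries were strand-specific and read single-end; the methods give 100 bp, the series' design text 50 bp, which is not resolved here. Alignment was to P. trichocarpa (PlantGDB), by TopHat and Bowtie with 1 mismatch allowed. The authors counted reads per gene and deposited them as RPKM values, 1 column per library. The build and the versions are not given in the sources used here. The authors' log2 ratios, test statistics, p and q values from Cuffdiff were not used.

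Log2 ratios of MOMT4 over WT were computed with a pseudocount of 1 RPKM, for poplar genes whose mean reached 1 RPKM, leaving out rows marked as failed. The ratio of values for the same number of reads was taken as the most frequent ratio other than 1. The totals came from the genes with equal reads that lie on a line of inverse value against span less 215 bases. These genes were taken to hold a single read in each library and no introns. Limits on the reads of single genes used the full span. The steps were tested on simulated data. The genes and limits were chosen with earlier results of these data known. The genes named are the 7 xylan genes, the gene nearest to each in level, the row taken as the transgene, and 3 neighbours that were chosen after their values were seen. A list of other xylan genes, to be matched by annotation, photosynthesis genes as a sign of green tissue, and a comparison of protein sequences were planned and not analysed here, since no annotation or sequence was used. Alternatives were a pseudocount of 0.1 RPKM or none, centring, upper quartile scaling, other ranges of like level and other filters. Computation was in Python 3.11.15 with SciPy 1.17.1, NumPy 2.4.6 and pandas 2.3.3, and plots were drawn in matplotlib 3.10.9.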

Additional observations from a re-analysis of the deposited data

How the results depend on the processing

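No paired analysis was possible because only 1 library represents each group. Under a pseudocount of 0.1 RPKM, no pseudocount, centring on the median of all genes and upper quartile scaling, each of the 7 log2 ratios kept its sign and moved by less than the SD of genes of like level, and 4 genes were lower in MOMT4 in each case. The alternative without a pseudocount was chosen after seeing the data. Which ratio was closest to 0 depended on the scaling: it was that of GT47C (Potri.009G006500), at 0.0026, but with upper quartile scaling GT47C was at 0.010 and Potri.007G047500 at -0.0053, and with centring at 0.0083 and -0.0074. GT43A (Potri.006G131000) ranged from 0.34 to 0.35, and Potri.003G162000 from -0.11 to -0.049. The median over the 7 genes lay between -0.014 and -0.0052, also with each gene left out in turn. The percentile of GT43A among genes of like level lay between 93.3 and 94.5 with a range of 1.5-fold, the 200 nearest genes or a pseudocount of 0.1 RPKM. For Potri.003G162000, whose own level is under the filter, taking 1309 genes of like level without the filter, an alternative chosen after seeing the data, gave 41.1 in place of 43.9. With a mean of at least 5 RPKM, the share of all genes at least 1.5-fold apart was 4.08% in place of 7.07%, and at least 2-fold apart 0.855% in place of 1.77%, over fewer low genes; the counts of 0 among the 7 genes did not change. Shares of duplicates from estimated reads were not run, since exon lengths were not used here.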
